A study of Mus musculus with 9 samples.

Results

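The proteasome is the barrel-shaped protease that degrades ubiquitin-tagged proteins, and the genes described here encode its subunits, its regulators and its assembly factors. They were taken as the protein-coding genes whose symbol is Psma to Psmg followed by a digit. This gave 51 of the 55322 genes in the expression table. RNA-seq was performed on 9 libraries from wild-type C57BL/6 mice, 3 in each of 3 groups. The CD11b- B cells and the CD11b+ B cells were sorted from bone marrow (BM) at 48 h after lipopolysaccharide (LPS, 5 mg/kg, injected into the peritoneum). The BM cells had been depleted of cells bearing TER119, NK1.1, Gr-1, CD8, CD4 or CD3 before the sort. Peritoneal macrophages (PM), sorted as CD11b+F4/80+ cells, came from naive mice without LPS. No age is given in the sources used here, and no library holds B cells of untreated mice. Cell type, tissue and LPS treatment therefore cannot be told apart between B cells and PM. The labels do not say whether libraries came from separate mice, so the p-values measure the spread between these samples, which may be partly technical.

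The core particle, 20S, is a stack of rings of alpha subunits (Psma genes) around rings of beta subunits (Psmb genes). The beta subunits Psmb5, Psmb6 and Psmb7 carry the chymotrypsin-like, caspase-like and trypsin-like sites. In the immunoproteasome these are replaced by Psmb8, Psmb9 and Psmb10, which interferon-gamma induces and which many blood cells express without induction. The 19S cap, made of ATPases (Psmc genes) and non-ATPases (most Psmd genes), binds ubiquitin chains, unfolds the substrate and opens the core. PA28 (Psme1 and Psme2), PA28-gamma (Psme3) and PA200 (Psme4) are alternative caps, and Psmf1 is an inhibitor of the core. The peptides that the proteasome makes are loaded on MHC class I molecules.

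The 51 genes fell into 7 alpha, 7 constitutive beta and 3 inducible beta subunits, 6 ATPases and 11 non-ATPases of the 19S cap, 4 core chaperones (Psmg1 to Psmg4), 3 cap chaperones (Psmd5, Psmd9 and Psmd10), 4 activators and 1 inhibitor. Psma8 and Psmb11 are the testis and thymus forms of core subunits. The other 3 only share the name: Psmc3ip is a recombination cofactor, Psme3ip1 binds PA28-gamma, and Psme2b is a near copy of Psme2. The transcripts of Psme2 and Psme2b were identical at 789 of 794 aligned bases (99.4%), so the split of reads between them is uncertain. The exons of 15 of the 51 genes overlap another gene, among them those of Psmb9 with Tap1, Psmb8 with Gm20496 and Psmb7 with Nek6.

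Promoter sequences are shown for the inducible and constitutive genes of the chymotrypsin-like and caspase-like sites, because Psmb8 and Psmb9 rose together in B cells against PM while Psmb5 and Psmb6 did not pass the test on FPKM. They are RefSeq promoters on GRCm38.p6, 250 bases before to 50 after a start site. The regions are chr17:34197945-34198244 (plus strand) for Psmb8, chr17:34187281-34187580 (minus strand) for Psmb9, chr14:54617946-54618245 (minus strand) for Psmb5 and chr11:70525107-70525406 (plus strand) for Psmb6. Capitals mark a match on either strand to the gamma-activated site TTCNNNGAA in Psmb8 and to the antioxidant response element core TGACNNNGC in Psmb5 and Psmb6.
Psmb8: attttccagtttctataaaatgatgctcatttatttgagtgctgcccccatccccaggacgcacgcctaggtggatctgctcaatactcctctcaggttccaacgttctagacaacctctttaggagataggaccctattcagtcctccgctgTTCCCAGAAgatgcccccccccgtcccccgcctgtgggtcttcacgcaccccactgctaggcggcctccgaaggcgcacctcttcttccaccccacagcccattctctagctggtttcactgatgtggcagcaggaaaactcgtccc
Psmb9: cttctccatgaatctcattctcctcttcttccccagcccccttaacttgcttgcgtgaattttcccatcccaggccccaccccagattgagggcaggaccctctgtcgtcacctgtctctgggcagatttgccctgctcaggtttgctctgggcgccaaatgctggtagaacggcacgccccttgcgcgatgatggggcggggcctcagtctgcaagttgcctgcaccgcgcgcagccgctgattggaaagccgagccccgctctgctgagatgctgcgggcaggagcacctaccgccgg
Psmb5: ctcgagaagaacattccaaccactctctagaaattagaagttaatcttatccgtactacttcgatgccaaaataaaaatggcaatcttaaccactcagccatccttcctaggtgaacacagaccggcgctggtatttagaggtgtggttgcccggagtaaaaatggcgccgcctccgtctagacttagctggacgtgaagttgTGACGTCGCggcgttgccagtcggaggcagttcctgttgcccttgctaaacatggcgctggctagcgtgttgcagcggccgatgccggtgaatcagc
Psmb6: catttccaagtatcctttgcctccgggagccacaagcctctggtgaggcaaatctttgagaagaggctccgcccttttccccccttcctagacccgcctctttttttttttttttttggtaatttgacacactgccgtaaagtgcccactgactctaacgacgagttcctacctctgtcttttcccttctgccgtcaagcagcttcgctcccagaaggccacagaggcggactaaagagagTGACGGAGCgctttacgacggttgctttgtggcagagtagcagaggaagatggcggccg

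These matches begin at position -97 from the start site in Psmb8, -47 in Psmb5 and -9 in Psmb6. Promoters were found for 43 of the 51 genes, 47 in all. The gamma-activated letters were in 3 of the 47 (Psmb8, Psmd2 and Psmg1), against 8.298% of 32851 mouse promoters. The antioxidant letters were in 6 of the 47, against 12.392%. The interferon-stimulated response element core GAAANNGAA was in 7 of the 47, against 8.56%, and in none of the 4 promoters shown. No motif overlapped another in them. The matches describe letters only.

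The libraries held between 18014658 (PM replicate 1) and 35251215 reads on genes. Levels are given as FPKM, reads scaled by exon length and by the total of reads on genes. The 51 genes took 0.434% to 0.628% of the reads in PM, 0.769% to 0.845% in the CD11b- and 0.760% to 0.922% in the CD11b+ libraries. The B cell markers Cd22, Cd79a, Cd79b, Ms4a1 and Pax5 summed to 3902 to 4369 FPKM (CD11b+), 5086 to 5288 FPKM (CD11b-) and 48.9 to 78.1 FPKM (PM), and the 8 macrophage markers to 143 to 331, 96.7 to 124 and 20188 to 54869. The 9 neutrophil markers summed to 637, 1534 and 215 FPKM in the CD11b+ libraries against at most 2.97 in the CD11b- libraries, with none of the 9 at 0 throughout the CD11b+ group. T cell markers summed to at most 1.70 and NK cell markers to at most 3.52 in any library. The paper reports myeloid genes, Ngp and Ly6g among them, as higher in the CD11b+ than in the CD11b- B cells. In bulk samples such RNA made by the B cells and by other cells cannot be told apart. Neither can fewer cells and less RNA per cell, and their part in the results was not tested.

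**Figure D1:**
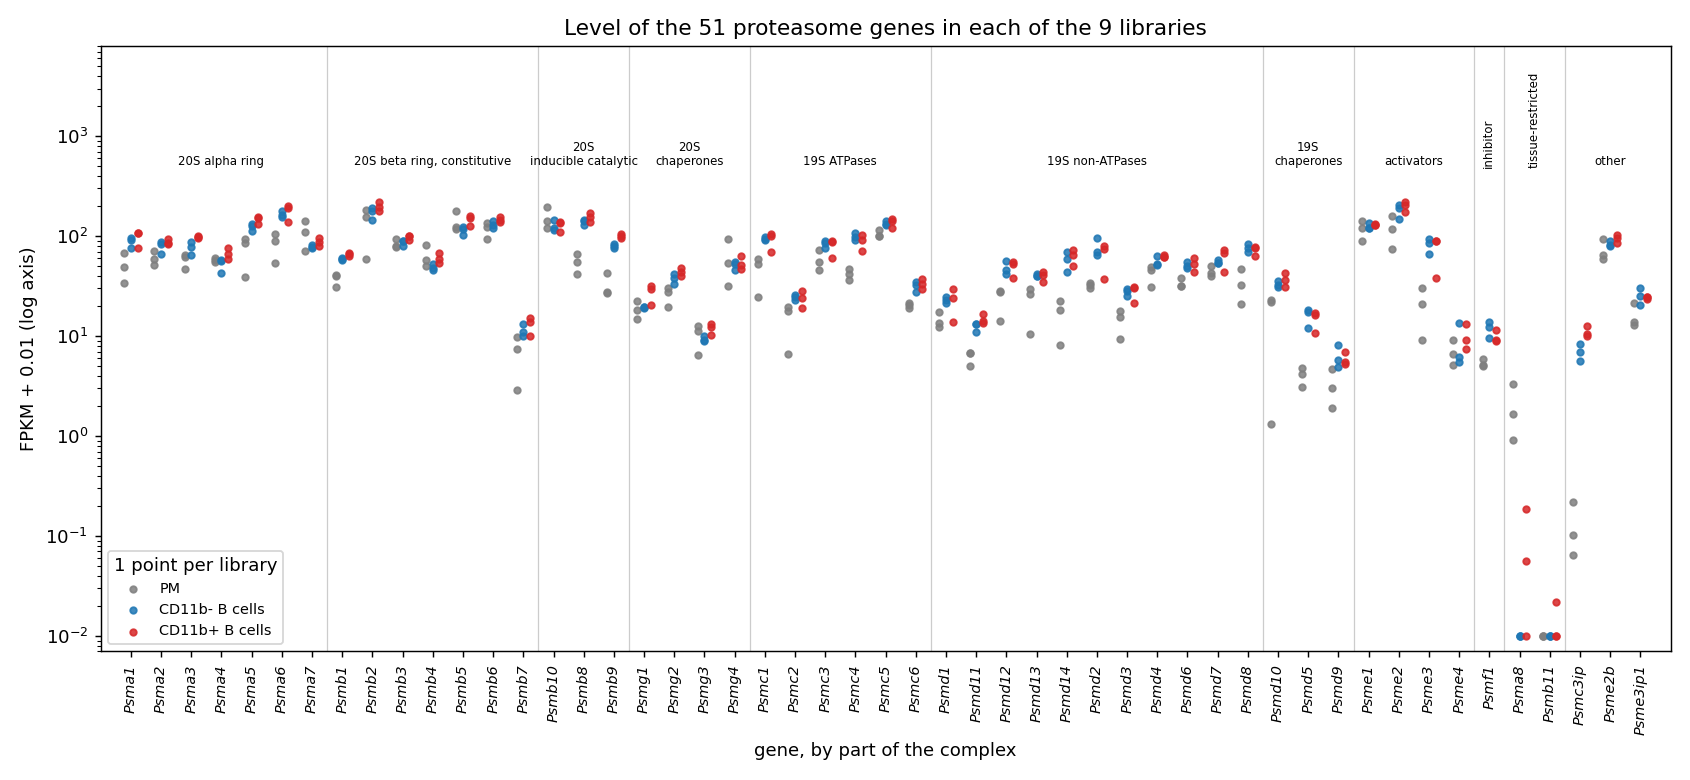
Level of each of the 51 genes in FPKM + 0.01 on a log axis (y) by gene and part of the complex (x), with 1 point per library, grey for PM, blue for CD11b- B cells and red for CD11b+ B cells. Most subunit genes lie in a common band, Psmb8 and Psmb9 are higher in all 6 B cell libraries than in the 3 PM libraries, and Psmb11 is at the bottom of the axis.

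The inducible catalytic genes separated B cells from PM, but only at 2 of the 3 sites. Psmb8 (ENSMUSG00000024338), on chromosome 17 from 34197721 to 34201454 of GRCm38, had 41.5, 65.9 and 55.6 FPKM in PM replicates 1 to 3. In CD11b- B cells it had 144, 142 and 129 FPKM, and in CD11b+ B cells 171, 156 and 140 FPKM. All 6 B cell libraries were above all 3 PM libraries, and the B cell groups overlapped. Its log2 fold change was 1.52 ± 0.22 (SE) in CD11b+ B cells against PM (limma, adjusted p = 0.0014) and 1.35 ± 0.20 in CD11b- B cells against PM (limma, adjusted p = 0.0015). These fold changes, here and below, are on the log2(FPKM + 1) scale.

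Psmb9, its neighbour on chromosome 17 (34181987 to 34187764), had 26.8, 42.7 and 27.9 FPKM in PM. It had 76.2, 82.7 and 80.4 FPKM in CD11b- B cells and 105, 101 and 96.3 in CD11b+ B cells. The 3 groups did not overlap, in the order PM, CD11b- and CD11b+. Its exons overlap those of Tap1, which was far higher in B cells than in PM, and with the use of strand not given, reads of Tap1 in the Psmb9 levels and in the share at the caspase-like site cannot be told apart. The mean was 3.10 times that of PM in CD11b+ B cells (log2 1.63 ± 0.22, limma, adjusted p = 9.9e-04) and 2.46 times in CD11b- B cells (log2 1.30 ± 0.20, limma, adjusted p = 0.0022). The CD11b- call was lost after median-ratio scaling (0.78, limma, adjusted p = 0.055) and in DESeq2 (0.73, adjusted p = 0.054). Between the B cell groups the difference was 0.33 ± 0.12 on the log2 scale and did not pass the test (limma, adjusted p = 0.59).

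Psmb10, on chromosome 8 (105935735 to 105938444), went with neither. Its levels were 121, 197 and 142 FPKM in PM, 115, 120 and 145 in CD11b- B cells and 110, 134 and 139 in CD11b+ B cells. All groups overlapped, and the log2 fold changes against PM were -0.24 ± 0.23 in CD11b+ and -0.25 ± 0.22 in CD11b- B cells (limma, adjusted p = 0.44 and 0.39). Under the count tests the CD11b- value became -0.82 in edgeR (adjusted p = 0.039) and -0.84 in DESeq2 (adjusted p = 0.027).

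The constitutive counterparts of Psmb8, Psmb9 and Psmb10 are Psmb5, Psmb6 and Psmb7. Psmb5 had 118, 179 and 124 FPKM in PM, 125, 118 and 103 in CD11b- B cells and 153, 159 and 127 in CD11b+ B cells. Psmb5 was higher in every CD11b+ than in any CD11b- library, and both groups overlapped PM. Psmb6 had 94.2, 136 and 125 FPKM in PM, 122, 141 and 128 in CD11b- B cells and 137, 155 and 146 in CD11b+ B cells, with an overlap between the B cell groups. Psmb7 had 2.86, 7.47 and 9.75 FPKM in PM, 13.1, 10.1 and 10.9 in CD11b- B cells and 15.2, 13.7 and 10.1 in CD11b+ B cells. All B cell libraries exceeded all PM libraries for Psmb7, but the log2 fold changes of 0.97 ± 0.39 and 0.80 ± 0.38 did not pass (limma, adjusted p = 0.098 and 0.14). None of the 3 constitutive genes passed the test in any of the 3 comparisons on FPKM.

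The level of Psmb7 was far below that of every other constitutive beta gene. Its exon length in the deposited table is 3421 bases, while its principal transcript in GENCODE M21 has 1160. Dividing by the longer length lowers its FPKM. Psmb3, with 2300 and 766 bases in the same order, was nonetheless far above Psmb7 in all 9 libraries. The part of length in the low level of Psmb7 was not tested. Psmb5 has 899 bases by both measures, so the choice of length moves the genes by different amounts. The shares and ratios between genes below are therefore given with both lengths, and sums with the deposited lengths only.

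The share of the inducible gene in each pair is a ratio within a library, which 1 scaling factor per library cannot move. At the chymotrypsin-like site, Psmb8 made up 26.1%, 26.9% and 31.0% of Psmb8 plus Psmb5 in PM. It made up 53.6%, 54.5% and 55.5% in CD11b- B cells and 52.8%, 49.5% and 52.4% in CD11b+ B cells. All B cell libraries lay well above all PM libraries, and the CD11b+ libraries lay just below the CD11b- libraries. At the caspase-like site, Psmb9 made up 22.1%, 23.9% and 18.2% of Psmb9 plus Psmb6 in PM. It made up 38.5%, 37.0% and 38.5% in CD11b- B cells and 43.3%, 39.4% and 39.8% in CD11b+ B cells, so here the CD11b+ libraries lay just above. At the trypsin-like site, Psmb10 made up 97.7%, 96.3% and 93.6% of Psmb10 plus Psmb7 in PM, 89.8%, 92.2% and 93.0% in CD11b- B cells and 87.8%, 90.7% and 93.3% in CD11b+ B cells. There PM lay highest, by a narrow gap, and the B cell groups overlapped. In their exons Psmb7 overlaps Nek6, Psmb8 overlaps Gm20496 and Psmb5 overlaps Mir686, and such reads in the shares cannot be told apart.

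The mean share at the chymotrypsin-like site was 28.0% ± 2.6 (SD, n = 3) in PM, 54.5% ± 0.96 in CD11b- and 51.6% ± 1.8 in CD11b+ B cells. The difference from PM was 23.6 points for CD11b+ and 26.6 points for CD11b- B cells. At the caspase-like site the means were 21.4% ± 2.9, 38.0% ± 0.89 and 40.8% ± 2.1, and the differences from PM 19.4 and 16.6 points. At the trypsin-like site they were 95.9% ± 2.1, 91.7% ± 1.7 and 90.6% ± 2.7. In 8 of the 9 tests the groups did not overlap and the exact two-sided permutation p was 0.1, the smallest that 3 against 3 libraries allow, so no share can pass 0.05 (adjusted over the 9 tests, 0.1125). The ninth, CD11b+ against CD11b- B cells at the trypsin-like site, gave an exact permutation p of 0.7. With principal transcript lengths, an alternative added after the data were seen, the chymotrypsin-like means became 44.6% in PM, 71.3% in CD11b- and 68.9% in CD11b+ B cells, and the differences from PM stayed at 24.2 and 26.7 points. At the caspase-like site these lengths gave 23.9%, 41.4% and 44.3%, with differences from PM of 20.4 and 17.5 points. At the trypsin-like site they gave 91.2%, 82.9% and 81.1%, and the difference of CD11b+ B cells from PM went from -5.27 to -10.1 points.

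**Figure D2:**
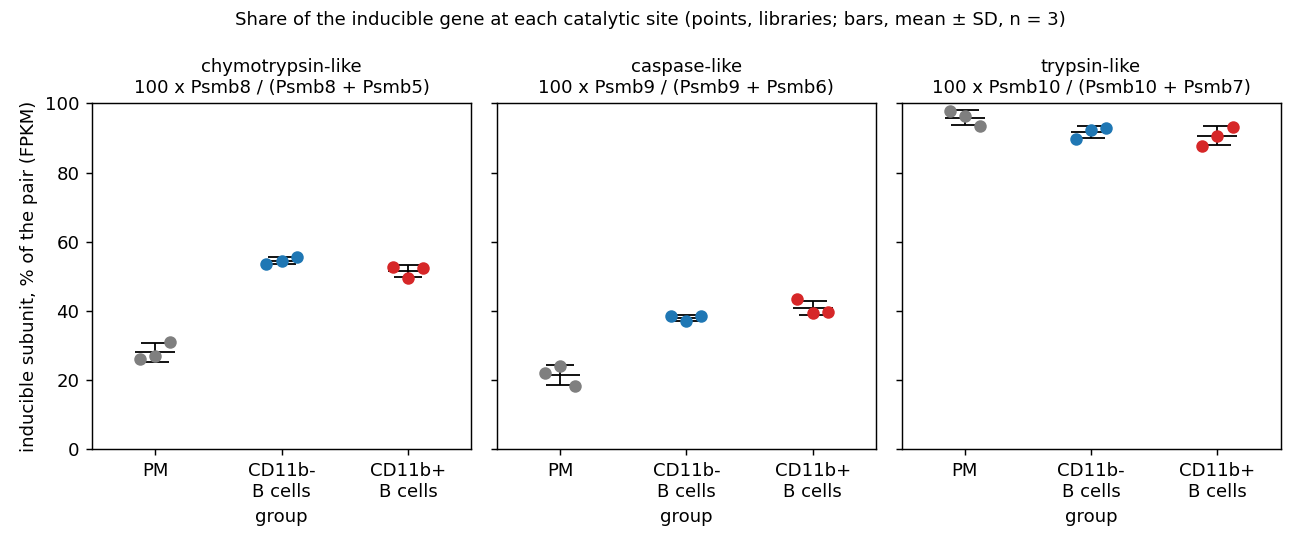
Share of the inducible gene at each of the 3 catalytic sites, as a percentage of the summed FPKM of the pair (y), by group (x), with 1 point per library and bars for the mean ± SD (n = 3). The PM libraries lie at 26.1% to 31.0% and 18.2% to 23.9% at the chymotrypsin-like and caspase-like sites, below all B cell libraries, and at 93.6% to 97.7% at the trypsin-like site, above them.

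The PA28 genes differed among themselves. Psme1, which encodes PA28-alpha, had 121, 142 and 89.0 FPKM in PM, 121, 119 and 135 in CD11b- B cells and 131, 132 and 129 in CD11b+ B cells. All 3 groups overlapped for Psme1. Psme2, its partner PA28-beta, had 73.5, 159 and 118 FPKM in PM, 205, 191 and 147 in CD11b- B cells and 217, 203 and 172 in CD11b+ B cells. Only the CD11b+ libraries lay wholly above PM, and neither difference from PM passed (limma, adjusted p = 0.068 for CD11b+ and 0.11 for CD11b-).

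Psme3, which encodes the nuclear PA28-gamma, stood out from both. On chromosome 11 (101316213 to 101323537), it had 9.15, 20.9 and 30.3 FPKM in PM, 94.3, 84.98 and 66.8 in CD11b- B cells and 89.3, 88.7 and 38.5 in CD11b+ B cells. All B cell libraries exceeded PM, and CD11b+ replicate 3 was the lowest of them. The CD11b- mean was 4.08 times that of PM (log2 2.11 ± 0.39, limma, adjusted p = 0.0048), and this was also called after each of the other scalings and in both count tests. The CD11b+ mean was 3.59 times that of PM (log2 1.84 ± 0.47, limma, adjusted p = 0.020). That call was lost in edgeR (adjusted p = 0.058), in DESeq2 (adjusted p = 0.051) and after median-ratio scaling (adjusted p = 0.096). The fourth activator, Psme4, lay between 5.10 and 13.6 FPKM in all 9 libraries and was called in no comparison.

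Over all 51 genes, more subunits were higher than lower in B cells against PM, but how many depended on the scaling. In CD11b+ B cells against PM, 50 genes were tested, of which the test called 21 (42.0%) higher and 1 (Psma8) lower. The shares over all 22102 tested genes were 21.5% higher and 8.78% lower. In CD11b- B cells against PM, which shares the PM libraries, 20 of 50 (40.0%) passed as higher and Psma8 alone (1 gene) as lower, against 25.8% and 11.0% of 20985 genes. These calls came from limma on log2(FPKM + 1) with Benjamini-Hochberg adjusted p under 0.05.

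FPKM divides by all reads. The gene with the most reads took 3.03%, 5.49% and 6.98% of them in PM replicates 1 to 3 (Apoe, Apoe and Lyz2). In the B cell libraries the top gene took 1.57% to 1.88%. The part of such genes in the fold changes below was not tested. Genes averaging 1 FPKM or more had a median log2 fold change of 0.53 in both comparisons with PM. The members' medians, 0.76 in CD11b+ and 0.64 in CD11b- B cells against PM, lay above it in both. After median-ratio scaling the median of those genes was 0.12 and 0.10, and the members' medians were 0.27 and 0.13. For CD11b+ B cells that scaling called 5 members up and 1 down against PM (13.2% and 11.6% of all genes), and for CD11b- B cells 7 up and 3 down (16.2% and 14.7%). On whole reads, edgeR called 6 higher and 1 lower for CD11b+ (18.7% and 18.1% of all genes) and 9 higher and 6 lower for CD11b- (21.1% and 20.9%). DESeq2 called 6 higher and 1 lower for CD11b+ (18.9% and 17.5%) and 8 higher and 6 lower for CD11b- (20.9% and 22.1%). The members' share of higher calls was thus above the background on FPKM and below it in the other 3.

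**Figure D3:**
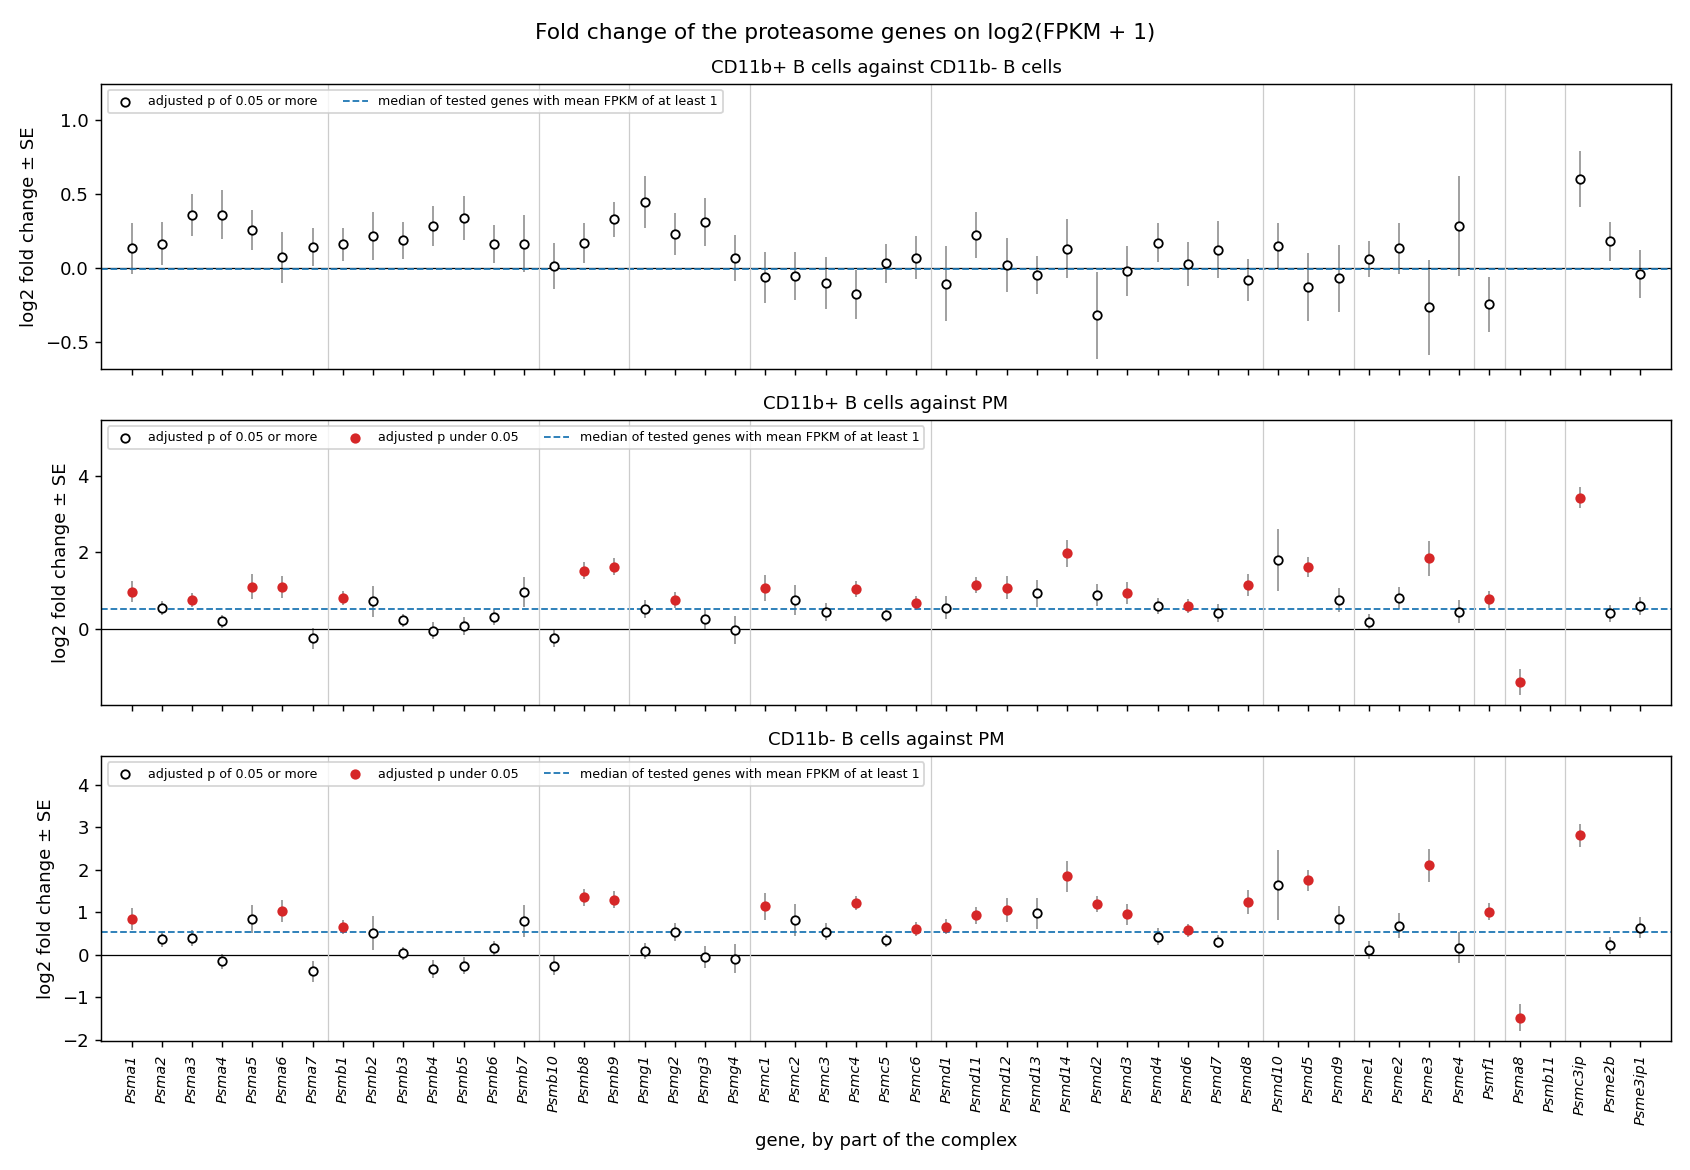
Log2 fold change ± SE on log2(FPKM + 1) (y) of each tested gene, by part of the complex (x), in the 3 comparisons (panels), with filled red points for adjusted p under 0.05 and open points for the rest. The dashed line, the median of tested genes averaging 1 FPKM or more, lies at -0.01 between the B cell groups, where no point is filled, and at 0.53 in both comparisons with PM, where 22 and 21 points are filled.

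The genes called higher in CD11b+ B cells against PM under all 4 of these procedures were Psmb8, Psmb9, Psmc3ip, Psmd14 and Psmd5. In CD11b- B cells against PM they were Psmb8, Psmc3ip, Psmc4, Psmd14, Psmd2, Psmd5 and Psme3. Psmd14, the deubiquitinase of the 19S lid that removes ubiquitin chains from substrates, had 8.17, 18.1 and 22.4 FPKM in PM, 69.0, 58.8 and 44.2 in CD11b- B cells and 72.7, 64.1 and 50.8 in CD11b+ B cells. Every B cell library was above every PM library. Its mean was 3.86 times that of PM in CD11b+ B cells (log2 1.98 ± 0.35, limma, adjusted p = 0.0040) and 3.54 times in CD11b- B cells (log2 1.84 ± 0.36, limma, adjusted p = 0.0058). Psmd5, a chaperone of cap assembly, rose by 1.63 ± 0.26 and 1.76 ± 0.24 on the log2 scale (limma, adjusted p = 0.0026 and 0.0012). Psmd2, the cap subunit that binds shuttle factors, had 94.97, 69.6 and 65.5 FPKM in CD11b- B cells against 34.2, 30.6 and 32.2 in PM. Both count tests called Psma4, Psma7, Psma8, Psmb4, Psmb5 and Psmb10 lower in CD11b- B cells, of which limma on FPKM called only Psma8.

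By part of the complex, the cap genes chosen by symbol had higher median fold changes than the core genes in these comparisons. Sem1, a cap subunit with another symbol, was called lower in both, as described with the partner genes. Of the 17 genes of the 19S base and lid, all 17 had a higher mean in each B cell group than in PM, 9 (CD11b+) and 11 (CD11b-) passed the test (against 21.5% and 25.8% of all genes), and their median log2 fold changes were 0.88 and 0.93. Of the 14 constitutive core genes, 5 and 3 were called higher, and the medians were 0.63 and 0.39. After median-ratio scaling the cap medians were 0.39 and 0.45 and those of the core 0.14 and -0.14. The cap counts fell with it, to 14 of 17 higher means in each comparison and to 1 call for CD11b+ and 3 for CD11b- B cells (13.2% and 16.2% of all genes). In edgeR and in DESeq2, 14 and 13 cap means were higher and 2 and 3 were called (18.7% and 21.1% of all genes in edgeR, 18.9% and 20.9% in DESeq2). Under these 3 procedures 0 core genes were called higher, and in CD11b- B cells 2 (median-ratio scaling) or 4 (edgeR and DESeq2) of the 14 passed as lower, against 14.7%, 20.9% and 22.1% of all genes. Psmc1, Psmc4 and Psmc6 were the cap ATPases called higher in both fits on FPKM, and Psmc4, with 36.5, 42.2 and 47.2 FPKM in PM and 96.9, 92.2 and 107 in CD11b- B cells, was the only one also called after median-ratio scaling and by both count tests, in CD11b- B cells. In the core, Psma7 and Psmb4 had lower means in both B cell groups than in PM, and neither was called on FPKM. Of the 4 core chaperones, Psmg2 was called higher in CD11b+ B cells, and none in CD11b- B cells. The inhibitor Psmf1 had 5.89, 5.00 and 5.12 FPKM in PM, 12.4, 9.65 and 13.8 in CD11b- B cells and 11.6, 9.09 and 9.002 in CD11b+ B cells, and was called higher in both (limma, adjusted p = 0.030 for CD11b+ and 0.0071 for CD11b-) but in neither after median-ratio scaling. The CD11b- call stood in edgeR (adjusted p = 0.049) and DESeq2 (adjusted p = 0.020), and the CD11b+ call in neither.

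The summed FPKM of the 17 cap genes, divided by that of the 14 constitutive core genes in the same library, is a ratio that 1 scaling factor per library cannot move. The ratio was 0.56, 0.48 and 0.57 in PM, 0.77, 0.72 and 0.83 in CD11b- B cells and 0.69, 0.69 and 0.59 in CD11b+ B cells. The 3 groups did not overlap. With principal transcript lengths, which 15 of the cap genes and all 14 core genes have, the ratio was 0.39, 0.34 and 0.40, then 0.59, 0.54 and 0.60, then 0.53, 0.52 and 0.43, again without overlap. With Sem1, a small cap subunit that the naming rule leaves out, added to the cap sum, the ratio with the deposited lengths was 0.72, 0.59 and 0.65 in PM, 0.79, 0.75 and 0.85 in CD11b- and 0.71, 0.72 and 0.62 in CD11b+ B cells. PM and CD11b+ B cells then overlapped, and CD11b- B cells lay above both. This ratio was formed after the values had been seen and is given without a test. The core sums were 812, 1311 and 1089 FPKM in PM, 1362, 1318 and 1170 in CD11b- and 1567, 1541 and 1352 in CD11b+ B cells, and the cap sums 455, 632 and 617, then 1054, 950 and 971, then 1082, 1070 and 795.

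**Figure D4:**
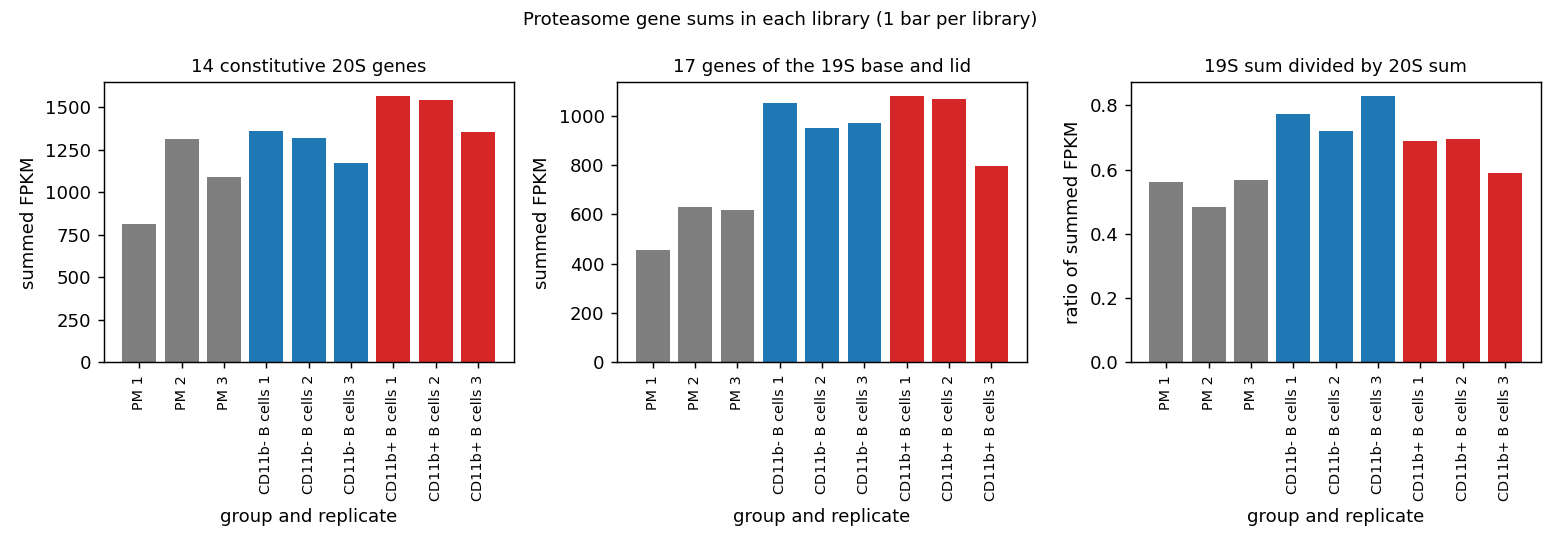
Summed FPKM (y) of the 14 constitutive core genes and of the 17 genes of the 19S base and lid, and the ratio of the second sum to the first, with 1 bar per library (x) in grey for PM, blue for CD11b- and red for CD11b+ B cells. The cap sum of CD11b+ replicate 3 (795) is below those of the other B cell libraries (950 to 1082), and the ratio is lowest in PM and highest in CD11b- B cells.

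Between the CD11b+ and CD11b- B cells, no proteasome gene was called in either direction. Of the 51 genes, 49 were tested, and 0 passed in limma on FPKM, in edgeR or in DESeq2, where 0.0689%, 0.269% and 2.09% of all genes were called. At an unadjusted p under 0.05, limma gave 4 members higher (Psmc3ip, Psmb9, Psmg1 and Psma3) and 0 lower, against 4.65% and 3.04% of all 21778 tested genes. In 12 of the 49 (24.5%) every CD11b+ value exceeded every CD11b- value, and in 0 the reverse held, against 8.63% and 6.32% of all genes.

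The core genes leaned to the CD11b+ side and the cap genes did not. All 17 genes of the alpha ring, the beta ring and the inducible sites had a higher mean in CD11b+ B cells, with a median log2 fold change of 0.17 and a range from 0.01 (Psmb10) to 0.36 (Psma4). Psmb10 turned to -0.01 after median-ratio scaling. All 4 core chaperones had a higher mean too, with a median of 0.27, and 3 of 4, all but Psmg4, without CD11b+ replicate 3 or without CD11b- replicate 3. Of the 17 cap genes, 8 were higher and 9 lower, with a median of -0.02. Among all tested genes averaging 1 FPKM or more, 49.0% had a higher mean in CD11b+ B cells. Genes of 1 complex are not independent of each other, and no single difference passed the test. The sums of other gene groups are set beside this. The 7 plasma cell markers summed to 252 to 641 FPKM (CD11b+) against 101 to 179 FPKM (CD11b-), and the 6 proliferation markers to 67.2 to 191 FPKM against 24.1 to 91.8 FPKM, which overlap. Of these markers 0 were called in limma or edgeR (4 plasma cell and 3 proliferation markers were higher at an unadjusted p under 0.05 in limma), and DESeq2 called 3 and 2 higher in CD11b+ B cells. The 9 neutrophil markers, with the sums given above, did not overlap between the groups. Of them, 3 (Retnlg, S100a8 and S100a9) were called higher in limma, 7 in edgeR and 8 in DESeq2. Sums of macrophage (given above), monocyte and erythroid markers (given with the processing) were also higher in CD11b+ B cells without overlap. Of these markers, limma called 0, edgeR 1 (Csf1r), and DESeq2 4 macrophage, 4 monocyte and 0 erythroid markers higher. The B cell marker sums given above were lower in CD11b+ B cells without overlap, with 0 markers called in limma, edgeR or DESeq2. The 8 interferon response markers summed to 84.4 to 113 FPKM (CD11b+) and 49.9 to 71.4 FPKM (CD11b-), also without overlap, with 0 called in limma (3 higher at an unadjusted p under 0.05) and 1 in DESeq2. The part of these lists in the lean of the core genes was not tested.

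The split of the cap genes moved with single libraries. It became 4 higher and 13 lower without CD11b+ replicate 1, and likewise without CD11b- replicate 3. Without CD11b+ replicate 3, 16 of the 17 cap genes had a higher mean in CD11b+ B cells, all but Psmc4, and the median was 0.14. The core count without it was 16 of 17, all but Psmb10, with a median of 0.24. In that library 38 of the 49 members averaging 1 FPKM or more had the lowest level of the group, against 43.1% of all such genes. Psmd2 had 80.2, 74.0 and 37.1 FPKM in the 3 CD11b+ libraries, and Psme3 turned from -0.27 ± 0.32 to 0.13 on the log2 scale when replicate 3 was left out. The same library had the highest sum of plasma cell markers of its group (641 FPKM against 288 and 252), the lowest of proliferation markers (67.2 against 191 and 179) and the lowest of neutrophil markers. Their part in its proteasome levels was not tested.

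The largest differences between the B cell groups, none of them called, were those of Psmc3ip, Psmg1 and Psma4. Psmc3ip, which works with meiotic recombinases and is no proteasome subunit, had 8.32, 6.94 and 5.61 FPKM in CD11b- and 10.6, 12.5 and 9.96 in CD11b+ B cells, without overlap (log2 0.60 ± 0.19, limma, adjusted p = 0.51). In PM it had 0.092, 0.21 and 0.055 FPKM, from 16 reads over the 3 libraries. It was called higher in both B cell groups against PM, at 3.42 ± 0.27 and 2.82 ± 0.27 on the log2(FPKM + 1) scale (limma, adjusted p = 6.3e-05 and 1.9e-04), a scale that understates the change of a gene so low in PM. Its exons overlap those of Mlx. Psmg1, which pairs with Psmg2 to start the assembly of the alpha ring, had 19.5, 19.3 and 19.5 FPKM in CD11b-, 29.6, 31.5 and 20.7 in CD11b+ B cells and 14.7, 22.5 and 18.4 in PM. All CD11b+ values exceeded the CD11b- values (0.45 ± 0.18, limma, adjusted p = 0.64), replicate 3 only just. Psma4, an alpha subunit, had 57.6, 56.8 and 42.4 FPKM in CD11b-, 75.9, 65.9 and 59.5 in CD11b+ B cells and 60.5, 57.1 and 55.6 in PM, also without overlap between the B cell groups (0.36 ± 0.17, limma, adjusted p = 0.67).

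PM replicate 1, the library with the fewest reads, was low in many members. There 34 of 49 had the lowest level of the 3 PM libraries, against 28.1% of all genes averaging 1 FPKM or more, and the median member stood at 72.0% of the mean of the other 2 libraries. The same library had the lowest sum of macrophage markers (20188 FPKM against 43660 and 54869) and the highest of B cell markers (78.1 against 48.9 and 51.1), and their part in its proteasome levels was not tested. Psmd10, a chaperone of the cap known as gankyrin, had 1.32 FPKM there against 22.7 and 21.8 in the other PM libraries, and 30.8 to 43.0 in the B cells. With that library in the fit its log2 fold change against PM was 1.80 ± 0.81 in CD11b+ B cells and did not pass (limma, adjusted p = 0.13). Psmb2 had 59.7 FPKM there against 181 and 157, and Psma5 38.7 against 84.9 and 94.0.

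The tissue-restricted core genes were near the lower limit. Psmb11, the beta subunit of the thymus, had 0 reads in 8 libraries and 2 in CD11b+ replicate 3, and was not tested. Psma8, the alpha subunit of the testis, had 3.27, 0.91 and 1.65 FPKM in PM, from 296 reads, 0 reads in the CD11b- libraries, which allows up to 3 reads in each, and 0.18, 0.05 and 0 FPKM in CD11b+ B cells, from 16 reads. It was the member called lower in both B cell groups against PM (limma, adjusted p = 0.017 for CD11b+ and 0.0088 for CD11b-). Counting error only is covered by that limit.

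Of 22 other genes of the pathway listed for assembly, shuttling, deubiquitination and control, 21 were matched, and 0 were called between the B cell groups. Against PM, 6 rose and 2 fell in CD11b+ B cells, and 8 rose and 4 fell in CD11b- B cells, where 21.5% and 8.78%, then 25.8% and 11.0%, of all genes did. Under the other 3 procedures fewer rose than fell. Median-ratio scaling, edgeR and DESeq2 each gave 2 up and 6 down for the CD11b+ group. For the CD11b- group they gave 2, 2 and 3 up and 5 down. In the same order, 13.2%, 18.7% and 18.9% of all genes rose and 11.6%, 18.1% and 17.5% fell for CD11b+, and 16.2%, 21.1% and 20.9% rose and 14.7%, 20.9% and 22.1% fell for CD11b-. Sem1, a small cap subunit, fell by 1.62 and 1.94 on the log2 scale against PM, with 126, 137 and 85.6 FPKM in PM against 25.9 to 46.8 in the 6 B cell libraries (limma, adjusted p = 0.0021 and 5.0e-04). Pomp, the maturation factor of the beta ring, had 42.8, 62.2 and 43.3 FPKM in PM, 27.7, 28.0 and 24.6 in CD11b- B cells and 30.1, 34.1 and 41.5 in CD11b+ B cells. On FPKM it was called lower in CD11b- B cells only (-0.84 ± 0.19, limma, adjusted p = 0.011), and under the other 3 procedures in both B cell groups. Uchl5, a deubiquitinase of the cap, rose by 1.498 ± 0.22 in CD11b+ and 1.14 ± 0.21 in CD11b- B cells (limma, adjusted p = 0.0017 and 0.0045), and the CD11b- call was lost under the other 3 procedures. Of the regulators that respond to proteasome loss, Nfe2l1 was called higher in CD11b- B cells only on FPKM (0.78 ± 0.25, limma, adjusted p = 0.041). The median of the 21 was 0.25 and 0.20 against PM on FPKM and -0.19 and -0.26 after median-ratio scaling.

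Of 10 genes that load class I molecules, 3 were called higher in CD11b+ B cells against PM (H2-K1, Tap1 and Tap2) and 4 in CD11b- B cells (Erap1 in addition), against 21.5% and 25.8% of all genes, with Pdia3 called lower in the latter. Tap1 and Tap2 kept both calls under the other 3 procedures, Erap1 lost its call in all 3, and H2-K1 lost that in CD11b+ B cells after median-ratio scaling. Median-ratio scaling, edgeR and DESeq2 gave 2, 3 and 3 genes up and 2, 3 and 4 down for the CD11b+ group, and 3, 3 and 3 up and 3, 3 and 4 down for the CD11b- group. Over all genes these procedures called 13.2% to 18.9% up and 11.6% to 18.1% down for CD11b+, and 16.2% to 21.1% up and 14.7% to 22.1% down for CD11b-. The loading genes called down were Canx and Pdia3, and under some of these procedures Calr and H2-D1. Tap1, a chain of the transporter that carries proteasome peptides into the endoplasmic reticulum and the gene that overlaps Psmb9, had 13.2, 15.6 and 8.53 FPKM in PM, 83.3, 89.0 and 85.03 in CD11b- and 83.3, 93.1 and 87.2 in CD11b+ B cells. The 6 B cell libraries lay far above PM and overlapped each other (log2 2.76 ± 0.23 and 2.73 ± 0.22 against PM, limma, adjusted p = 8.5e-05 and 8.3e-05). B2m, the light chain of class I, lay between 1692 and 2870 FPKM in all 9 libraries and was not called. Of 11 genes that induce immunoproteasome subunits (interferon receptors, Stat and Irf factors), 4 were called up and 1 down in CD11b+ B cells on FPKM (21.5% and 8.78% of all genes), and 5 and 1 in CD11b- B cells (25.8% and 11.0%). The other 3 procedures gave 1 up (Irf8) and 2 down (Ifnar2 and Irf2) in both comparisons, where the shares over all genes were those given for the loading genes. Irf8 and Ifnar2 were thus called in opposite directions throughout. Irf8 had 19.96, 16.4 and 16.2 FPKM in PM against 96.5 to 129 in the B cells. Ifnar2, a chain of the type I interferon receptor, had 72.3, 66.5 and 83.3 FPKM in PM against 15.6 to 23.2 in the B cells. Irf1 had 23.8, 52.9 and 33.2 FPKM in PM, 45.5, 42.8 and 60.6 in CD11b- and 40.7, 39.8 and 39.7 in CD11b+ B cells, and was not called. The 8 interferon response markers summed to 57.1 to 89.3 FPKM in PM, 49.9 to 71.4 in CD11b- and 84.4 to 113 in CD11b+ B cells. None of the 10 loading genes or the 11 inducers was called between the B cell groups.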

How the data were processed

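The authors prepared cDNA with a SMART-seq HT kit, trimmed paired reads with Trim Galore 0.4.4, Trimmomatic 0.36 and cutadapt 1.16, mapped them to the mouse genome with STAR 2.7.2b and counted reads per gene with featureCounts 1.6.1. The use of strand and the handling of multimapping reads are not given in the sources used here. The labels name both GRCm38 and GRCm39. Gene positions are printed from GENCODE M21 on GRCm38, matched by gene identifier for 51 of 51 genes.

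The deposited table gives FPKM, reads scaled by exon length and by the total of reads on genes, and the authors computed it before deposit. A second deposited table holds a normalized signal, which per the labels' tools comes from DESeq2 1.20.0, for 11063 genes, 17 of them members. It was used only to check the recovered reads. Comparisons already computed by the authors were not used. FPKM times exon length gave whole reads (within 0.05) for 100.0% of values, so read numbers were recovered, and the second table matched them for 100.0%.

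Genes whose FPKM averaged 0.05 or more over the 6 libraries of a comparison were tested with limma 3.58.1 in R 4.3.3 (two-sided, variance trend) on log2(FPKM + 1), with Benjamini-Hochberg adjustment over all genes and a threshold of 0.05. Catalytic-site shares were compared by an exact permutation test (scipy 1.17.1). Alternatives were a pseudocount of 0.1, no filter, a filter at 1, a single fit of all 9 libraries, a replicate block, median-ratio scaling, quantile normalization, no trend, edgeR 4.0.16 and DESeq2 1.42.0 on the recovered reads, each library left out, geometric group means for the shares and, added after the data were seen, principal transcript lengths for the shares and the ratio of cap to core. The tests were also run on simulated reads in which the changed genes were balanced up and down. Those reads hold no median shift like that against PM, so they cannot check the calls for it. The members and lists were chosen with earlier results of these data known. Values in every library are given for the catalytic genes Psmb5 to Psmb10, for Psme1 to Psme3 and for the 3 members of largest absolute log2 fold change in each comparison. Others are given by count and range, and those named beyond this rule were chosen after their values were seen. Lists held 22 partners, 10 loading genes, 11 inducers and 10 marker lists. The monocyte markers summed to 29.0 to 49.3 FPKM in CD11b+, 10.7 to 19.5 in CD11b- B cells and 297 to 551 in PM. The erythroid markers summed to 27.3 to 38.2, 1.35 to 20.9 and at most 0.091 in the same order. Both are described only between the B cell groups. Another marker of the B cell list is not reported here.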

Additional observations from a re-analysis of the deposited data

How the results depend on the processing

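Between the B cell groups 0 members were called under every alternative. Against PM, the 21 members called higher in CD11b+ B cells became 11 with no filter on FPKM, 5 after median-ratio scaling, 10 after quantile normalization, and 6 in both edgeR and DESeq2, and ran from 8 (without CD11b+ replicate 1 or 2) and 13 (without PM replicate 3) to 21 with a library left out. The 1 called lower became 0 with no filter, and ran from 0 (without any 1 CD11b+ library) to 1. The 20 called higher in CD11b- B cells became 7, 13, 9 and 8 after median-ratio scaling, quantile normalization, edgeR and DESeq2, and ran from 11 (without CD11b- replicate 1 or 2) to 23 (without PM replicate 1). The 1 called lower became 0 at a minimum mean FPKM of 1, 3 and 2 after the 2 scalings and 6 in both count tests, and ran from 1 to 2 (without PM replicate 1). The cause was not tested. Fits without a library have fewer samples. In genes averaging 1 FPKM or more the median shift against PM was 0.53 on FPKM. It was 0.12 (CD11b+) and 0.10 (CD11b-) after median-ratio scaling, and 0.13 and 0.15 after quantile normalization. With a replicate block 18 members were called higher in each comparison with PM and 0 between the B cell groups. The deviations of same-numbered B cell libraries from their group means correlated at 0.28, -0.02 and 0.21, and those with PM at -0.14 to 0.10. Between the B cell groups 4 of 6 libraries were closest to the one of their own number, and of 6 in each comparison with PM 2 (CD11b+) and 0 (CD11b-). The names of the deposited columns share a number in pairs 1 and 3 of the B cells only, the 2 that correlated, and no label ties a number to a mouse, so the block stands as an alternative only. A replicate block on those column numbers, added after the data were seen and resting on 2 pairs, called 0 members and 0 of all 21778 genes in limma (1062 at an unadjusted p under 0.05). There Psmb10 was -0.0632, and 15 of the 17 core and inducible genes and 6 of the 17 cap genes were higher in CD11b+ B cells.

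Under median-ratio scaling, edgeR or DESeq2 the direction turned for 1 of 49 members between the B cell groups, for 10 of 50 in CD11b+ and for 14 of 50 in CD11b- B cells against PM, 0 of them called before or after. Changes of sign are listed only for the members chosen by rule to have their values given in every library. These are Psmb5 to Psmb10, Psme1 to Psme3, Psmc3ip, Psmd14, Psmg1 and Psma4. None of the log2 fold changes listed was called before or after, and those of other members that changed sign are not listed. For CD11b+ against CD11b- B cells, Psmb10 was -0.009 after median-ratio scaling, -0.0832 after quantile normalization and -0.008 in DESeq2, and ran from -0.0551 to 0.1166 with a library left out. With a library left out Psmd14 ran from -0.0411 to 0.2739, Psme2 from -0.0082 to 0.2296 and Psme3 from -0.466 to 0.13. Psme1 was -0.0164 after quantile normalization. For CD11b+ B cells against PM, after median-ratio scaling, in edgeR and in DESeq2, Psma4 was -0.29, -0.28 and -0.29, Psmb5 -0.42, -0.46 and -0.47, Psmb6 -0.18, -0.22 and -0.22, and Psme1 -0.32, -0.36 and -0.36. Psma4 was -0.0105 after quantile normalization. Psmb5 ran from -0.0329 (without PM replicate 1) to 0.2691, and Psme1 from -0.0065 (without PM replicate 3) to 0.3269. For CD11b- B cells against PM, in the same order, Psmb6 was -0.38, -0.40 and -0.42, Psme1 -0.42, -0.44 and -0.46, and Psmg1 -0.43, -0.47 and -0.50, and Psmg1 was -0.37 after quantile normalization. Psmb6 ran from -0.0012 to 0.2602 and Psmg1 from -0.0652 to 0.2251 (both lowest without PM replicate 1), and Psme1 from -0.0703 (without PM replicate 3) to 0.2631. The share of Psmb10 at the trypsin-like site, CD11b+ minus CD11b- B cells, ran from -2.39 to 0.33 points (the latter without CD11b+ replicate 1). The other 8 differences in share kept their direction under every alternative.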
